A study of Drosophila melanogaster with 12 samples.

Results

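The sex difference that remained in *ISWI* mutants was described for whole Drosophila melanogaster larvae of the third instar. The comparison set 3 libraries of mutant males against 3 libraries of mutant females, that is, 6 of the 12 libraries of the series, over all 41081 rows of the table. The rows were sorted by their identifiers into 31271 known transcripts, 5969 transcripts assembled by the study from 2342 loci, 3840 insertions of transposable elements (TEs) and 1 other feature. Mutant males and mutant females were both ISWI1/ISWI2 in a yw background, and were picked as larvae without GFP from crosses of lines that carried each allele over a CyO GFP balancer. Control males and control females were wild type (+/+), so that the strain background differed together with the genotype. The control libraries were used to define sex-limited transcripts and to show the sex difference with ISWI present. All stocks were kept at 25 °C, each library pooled whole larvae of 1 sex, and ribosomal RNA was removed before sequencing. A library of whole larvae cannot tell fewer cells of a type from less RNA per cell. The labels do not say that libraries of a group came from separate crosses or vials, so the p-values measure the spread between these libraries.

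ISWI is the ATPase of several chromatin remodeling complexes in Drosophila, among them NURF, ACF and CHRAC, which slide and space nucleosomes. In males that lack ISWI, the dosage compensated X chromosome of the salivary gland loses its normal compact shape. At the end of larval life the sexes differ most in the gonad: the testis is already large and holds spermatocytes, which transcribe many genes used in no other tissue, whereas the larval ovary is small and has no mature egg chambers. TEs are mobile sequences that move through RNA (LTR and non-LTR retrotransposons) or as DNA, and are held down in germ line and soma by small RNAs and chromatin.

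The deposited values are normalized counts. Recovered reads came to between 89290368 and 119202607 per library, and the share of rows without a read was between 8.46% and 21.0%. Mutant male replicate 2 stood apart from the other mutant libraries, with 8.46% of rows at 0. The other mutant male libraries had 15.5% and 16.1% of rows at 0, and the mutant female libraries had between 18.1% and 21.0%. Control male replicate 2 likewise had the fewest rows at 0 of its group, with 9.32% beside 13.0% and 16.3%. Spearman's rho between mutant male libraries was between 0.822 and 0.855 across transcripts, which are not independent, and it was between 0.860 and 0.868 between mutant female libraries. Results that rest on mutant male replicate 2 are therefore given with and without it.

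Mutant males and mutant females still differed, and most of the transcripts called were higher in males. Of the 35284 transcripts tested, 1056 (2.99%) were higher in mutant males than in mutant females and 75 (0.213%) were lower, at an adjusted p under 0.05 by limma on log2(normalized count + 1). In the same fit, control males differed from control females in more transcripts, with 3283 (9.3%) higher and 244 (0.692%) lower. These were 3020 (10.8%) higher and 187 (0.672%) lower known transcripts, 202 (3.96%) and 42 (0.822%) assembled transcripts, and 61 (2.61%) and 15 (0.642%) TE insertions. Known transcripts held most of the calls in mutants, with 988 higher (3.55% of 27842) and 64 lower (0.23%). Of 5107 assembled transcripts, 63 (1.23%) were higher and 11 (0.215%) were lower. Of 2335 TE insertions, 5 (0.214%) were higher and none was lower. An unadjusted limma p under 0.05 was found for 133 of the 2335, beside 4226 of all 35284 tested transcripts. Without mutant male replicate 2 the counts were 667 higher and 112 lower, and 649 of those higher and 35 of those lower were among the calls from all libraries.

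The differences in the male direction were large and often came close to presence against absence. The median log2 fold change of the 1056 transcripts was 5.16, with a range from 0.75 to 13.48, and the median of their mean normalized counts was 157 in mutant males. Of the 1056, 466 (44.1%) had at most 3 reads in every mutant female library, which is taken here as the limit of detection. For the 75 transcripts that were lower in mutant males, the median log2 fold change was -3.17 and the median level in mutant females was 1128 normalized counts. In all 1131 called transcripts the mutant male and mutant female libraries did not overlap. Over all tested transcripts the libraries did not overlap in 9.91% with mutant males above and in 4.48% with mutant males below.

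**Figure D1:**
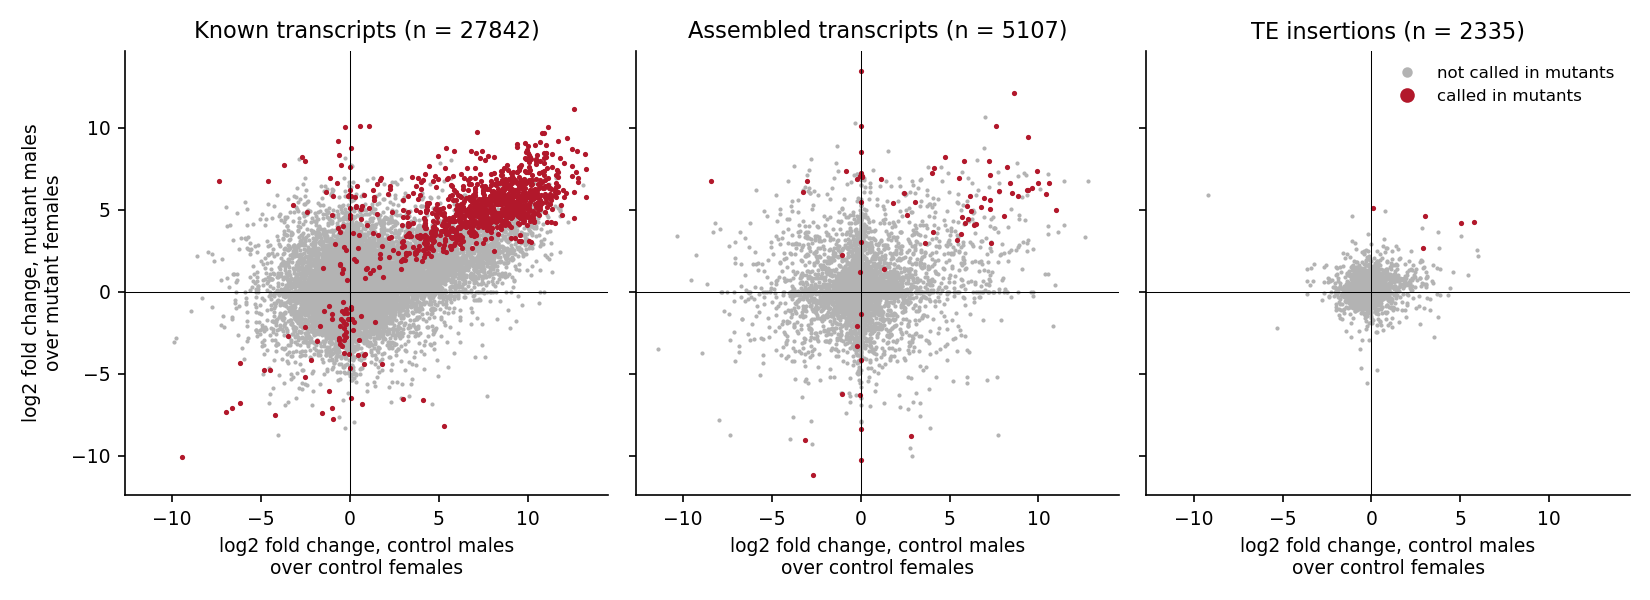
Log2 fold change of mutant males over mutant females (vertical axis) against that of control males over control females (horizontal axis), 1 point per tested transcript, in 3 panels by row class, with transcripts called in mutants in red. Most red points of the known class lie at the upper right, high in males of both genotypes, and only 5 points of the TE class are red.

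The transcripts that were higher in mutant males were mostly ones that control males also had at a higher level. Of the 1056, 943 (89.3%) were also called higher in control males, beside 9.3% of all tested transcripts. The 943 are 28.7% of the 3283 called there. Both contrasts used the same estimate of the spread for each transcript, so the calls are not independent. Of the 3283, 3063 (93.3%) had a log2 fold change above 0 in mutants, beside 55.0% of all tested transcripts. The median log2 fold change of the 3283 was 2.57 in mutants and 6.34 in controls. In the female direction, 13 of the 75 transcripts lower in mutant males (17.3%) were also lower in control males, beside 0.692% of all tested transcripts, and the 13 are 5.33% of 244. Of the 244, 154 (63.1%) had a log2 fold change below 0 in mutants, where 55.0% of all tested transcripts lay above 0. The 244 had a median log2 fold change of -0.32 in mutants and -2.82 in controls, where the sign was fixed by their choice. Across all 35284 transcripts Pearson's r of both sets of log2 fold changes was 0.485. It was 0.554 for known transcripts, 0.214 for assembled transcripts and 0.115 for TE insertions.

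Male expression was followed through transcripts that were limited to males in the controls. A transcript was put in the male-limited set if it had a normalized count of at least 100 in every control male library and at most 3 reads in every control female library. This gave 947 transcripts, 877 known and 70 assembled, chosen without values of the mutants. Their summed normalized count was 109315, 315823 and 93986 in the mutant male libraries, and 12506, 8990 and 21931 in the mutant female libraries. Every mutant male library thus lay above every mutant female library. The means were 173042 ± 123890 in mutant males and 14476 ± 6692 in mutant females (SD, n = 3 each), an 11.95-fold difference with an exact two-sided permutation p of 0.1, the smallest that 3 against 3 libraries allow. Without mutant male replicate 2 the difference was 7.02-fold.

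The male-limited set did not reach its control level in mutant males, and was not as low in mutant females as in control females. The controls had 804589, 989438 and 769543 in males and 93.9, 80.4 and 122 in females, as sums of normalized counts. The mean of control males was 4.94 times that of mutant males, or 8.41 times without mutant male replicate 2. Since the control values chose the set, these folds were not tested. The median transcript of the set stood at a log2 ratio to the control male mean of -3.76, -1.62 and -4.23 in the 3 mutant male libraries, and of -8.01, -8.73 and -7.37 in the 3 mutant female libraries. By this ratio mutant male replicate 2 was the nearest to control males, and it was the highest of the 3 mutant male libraries for 837 of the 947 transcripts.

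**Figure D2:**
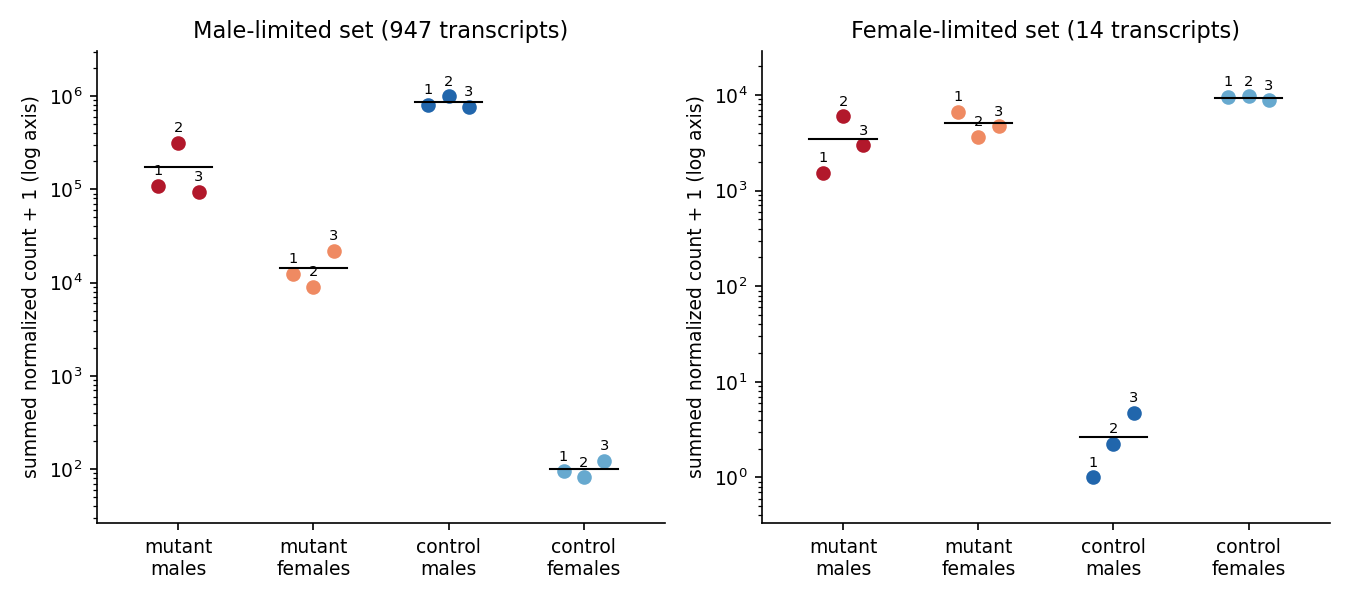
Summed normalized count plus 1 on a log axis of the male-limited set (left panel, 947 transcripts) and the female-limited set (right panel, 14 transcripts) in each library, with the replicate number at each point and the group mean as a line. In the left panel the mutant male libraries lie between 93986 and 315823 and the mutant female libraries between 8990 and 21931. In the right panel the mutant groups overlap.

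The members of the male-limited set mostly shared a direction but not an extent. The log2 fold change was above 0 in 918 of the 947, beside 55.0% of all tested transcripts, and in 798 without mutant male replicate 2. Of the 947, 439 (46.4%) were called higher in mutant males and none was called lower, beside 2.99% higher over all tested transcripts. Without mutant male replicate 2, 312 of the 947 were called higher, beside 667 of all 35284 tested transcripts. In 587 (62.0%) the mutant male libraries all lay above the mutant female libraries, beside 9.91% of all tested transcripts. Without mutant male replicate 2 this held for 593, beside 13.9% of all tested transcripts. Above 3 reads were 725, 922 and 677 of the 947 in mutant males, and 275, 98 and 405 in mutant females. 23 transcripts kept at least 50% of the control male mean in every mutant male library, and 64 were at 10% of it or less in each. The 23 summed to 13193, 12703 and 9395 normalized counts in mutant males, and to 4121, 2599 and 4959 in mutant females. Since mutant male values chose the 23, their level in mutant males is fixed by that choice and the difference was not tested. With a threshold of 20 in place of 100, the set held 1469 transcripts, of which 535 were called higher in mutant males. Levels across the 947 transcripts in mutant male replicate 2 correlated with those in control males with a Spearman's rho of 0.708 to 0.723. In replicates 1 and 3 it was 0.361 to 0.474.

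**Figure D3:**
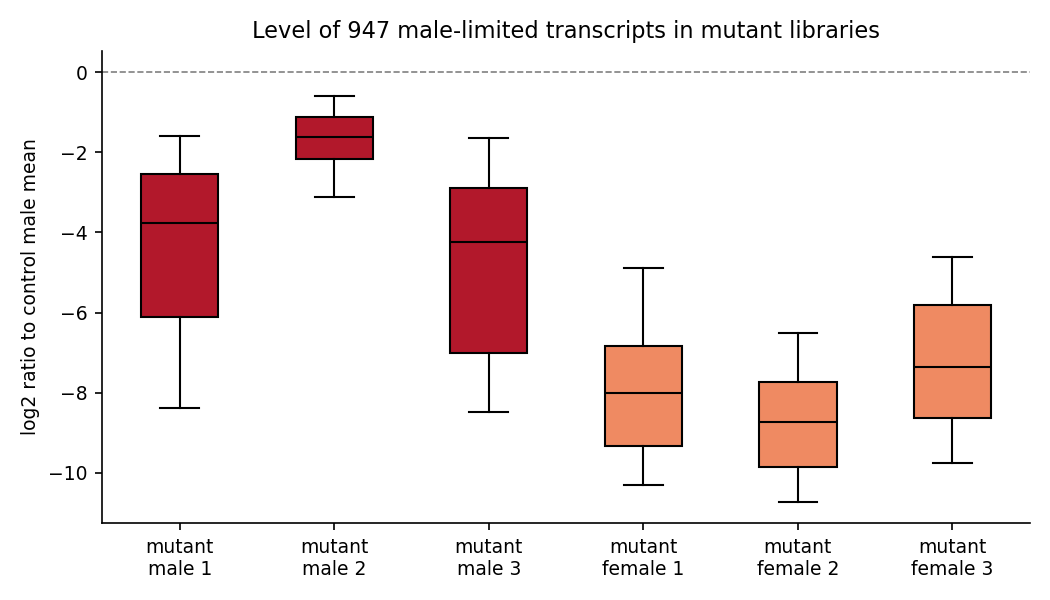
Log2 ratio of each of the 947 male-limited transcripts to its mean in control males, by library, with mutant males in red and mutant females in orange. Boxes span the quartiles, lines mark medians and whiskers mark the 10th and 90th percentiles. The median of mutant male replicate 2 is -1.62, and those of the mutant female libraries are -8.73 to -7.37.

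The female-limited set, defined in the same way with the sexes exchanged, held only 14 transcripts, 6 known and 8 assembled. Their summed normalized counts were 1540, 5981 and 2990 in mutant males and 6703, 3679 and 4748 in mutant females, so that the mutant sexes overlapped. The exact two-sided permutation p was 0.4. In controls the sums were 0, 1.26 and 3.76 in males and 9584, 9661 and 8767 in females. Of the 14, 2 were called higher in mutant males and none lower, beside 2.99% and 0.213% of all tested transcripts. With a threshold of 20 the set held 38 transcripts, whose sums also overlapped between the mutant sexes. Its 21 known members did not: they summed to 1442, 1217 and 2214 normalized counts in mutant males and to 2568, 2474 and 2236 in mutant females, and none of the 38 was called lower in mutant males. Whether this set of transcripts marks a female tissue could not be read from identifiers alone, and was not tested.

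The largest differences of single known transcripts were of the on-or-off kind. FBtr0073178 had 1073, 5698 and 2001 normalized counts in mutant males and 0 in every mutant female library, which makes it at least 839-fold higher in mutant males against 3 reads per library, or at least 441-fold without mutant male replicate 2. Its log2 fold change was 11.17 ± 1.04 (SE) with a limma adjusted p of 0.00029, and control males held 12175, 21548 and 16472 normalized counts. FBtr0344884 was high in mutant males alone, with 1054, 1878 and 721 normalized counts there, 0 in mutant females, about 1 in each control male library and 0 in control females. Its log2 fold change was 10.14 ± 0.55 with a limma adjusted p of 1.7e-05. In the other direction, FBtr0331264 had 0 in every mutant male library and 1044, 539 and 2097 normalized counts in mutant females. Its log2 fold change was -10.05 ± 1.15 with a limma adjusted p of 0.001. FBtr0308323 had 0 in every mutant male library and 254, 325 and 301 normalized counts in mutant females, with a limma adjusted p of 0.035. This call was kept in 3 of the 12 fits that left out a library, and was lost with edgeR (0.225), library weights (0.142) and a replicate block (0.0575), while DESeq2 gave it no adjusted p. The files give no gene for these identifiers.

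Assembled transcripts showed the widest differences, and most of their loci were not called as sums. MSTRG.2309.1 had 11227, 15218 and 8640 normalized counts in mutant males and 0 in the 9 other libraries. Its log2 fold change was 13.48 ± 0.50 with a limma adjusted p of 3.2e-06, and it was at least 3357-fold higher in mutant males against 3 reads per library. Summed over its 3 assembled transcripts, the locus was at 0 in mutant females as well, with a log2 fold change of 13.53 ± 2.97 (SE) and a limma adjusted p of 0.064. The locus was not silent in all controls, with 945 normalized counts in control male replicate 2 and 843 in control female replicate 2. MSTRG.15561.14 had 3829, 8975 and 2494 normalized counts in mutant males and 0 in mutant females, and the sum of its locus had a log2 fold change of 1.95 with a limma adjusted p of 0.0035. In the other direction, MSTRG.1668.4 had 0 in mutant males and 2423, 3061 and 1665 normalized counts in mutant females. MSTRG.15566.2 had 0 in mutant males and 1714, 442 and 2410 normalized counts in mutant females, and the sum of its locus had a log2 fold change of -3.45 with an adjusted p of 0.087. Over the 2156 assembled loci tested as sums, 27 (1.25%) were higher in mutant males and 1 (0.0464%) was lower. Of the 65 loci with a called transcript, 24 (36.9%) were called as sums.

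TE insertions were called rarely and at low levels. INE-1 is a short, very numerous and no longer mobile element, 3S18 is an LTR retrotransposon, and FB is a DNA transposon with long inverted repeats. INE-1{}3545 had 20.7, 99.5 and 18.9 normalized counts in mutant males and 0 in mutant females (limma adjusted p of 0.017). 3S18{}177 had 24.7, 27.6 and 18.9 normalized counts in mutant males and 0 in mutant females (limma adjusted p of 0.02). INE-1{}6041 had 65.2, 131 and 57.7 in mutant males and 8.51, 6.88 and 0 in mutant females. INE-1{}6031 had almost the same counts in the mutant libraries, so that these insertions may share reads. FB{}2581 had 9.87, 18.4 and 11.8 in mutant males and 1.22, 1.15 and 1.12 in mutant females. Without mutant male replicate 2, these 5 had limma adjusted p-values between 0.0515 and 0.115, and other insertions made up the 2 calls.

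Among TE families, summed over their insertions, Cr1a was the only one of 150 called, with 1 higher (0.667%) and none lower in mutant males. An unadjusted limma p under 0.05 was found for 15 of the 150, beside 4226 of the 35284 transcripts tested. Cr1a is a non-LTR retrotransposon. Its sum was 50489, 163589 and 79582 normalized counts in mutant males and 11142, 12533 and 13485 in mutant females. The mutant male libraries all lay above the mutant female libraries, and above the control libraries, which held between 4337 and 12624. The log2 fold change was 2.82 ± 0.39 with a limma adjusted p of 0.00023, and 2.36 without mutant male replicate 2 (adjusted p of 0.0025). Most of the counts in mutant males fell on 2 of the 127 insertions. Cr1a{}2297 had 21112, 112278 and 28071 in mutant males and 2449, 2910 and 4714 in mutant females, and Cr1a{}1995 made up 38.4% of the family in mutant males. Neither passed on its own, with limma adjusted p-values of 0.65 for Cr1a{}2297 and 0.63 for Cr1a{}1995. In controls they were near 0 except in control male replicate 2, which held 2427 and 3770 normalized counts of them. Without both, the family had a log2 fold change of 0.21 with a limma adjusted p of 0.70.

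**Figure D4:**
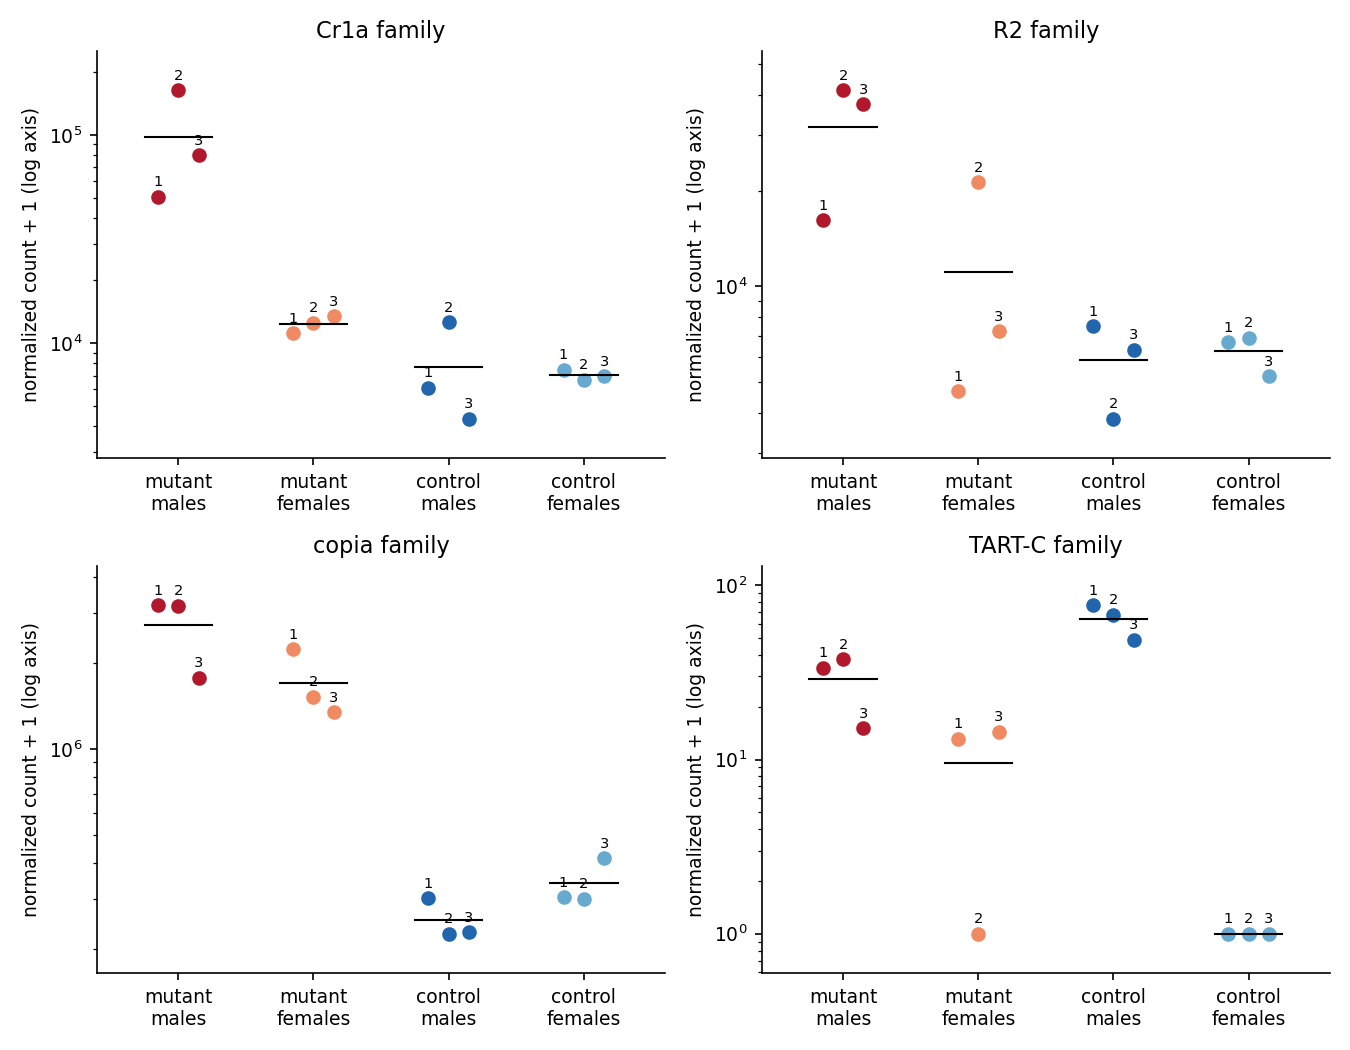
Normalized count plus 1 on a log axis of the Cr1a, R2, copia and TART-C families, summed over insertions, in each library, with the replicate number at each point and the group mean as a line. Cr1a lies between 50489 and 163589 in mutant males and between 4337 and 13485 in the other 9 libraries.

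By unadjusted p the next families were R2, which inserts into the ribosomal RNA genes, and RR51001, a single insertion with no named element. RR51001 had 541, 30.1 and 63.6 normalized counts in mutant males and 696, 693 and 376 in mutant females, with a log2 fold change of -2.46 and a limma adjusted p of 0.12. The sum of R2 was 16149, 41358 and 37380 normalized counts in mutant males and 4679, 21274 and 7208 in mutant females, with overlapping libraries. The log2 fold change of 1.71 ± 0.46 did not pass, with a limma adjusted p of 0.12, but it did without mutant male replicate 1 (0.0093) or without mutant female replicate 2 (0.0025). The LTR element copia was the most abundant family, at 3191211, 3171838 and 1776886 normalized counts in mutant males and 2233617, 1528092 and 1349088 in mutant females. Its log2 fold change of 0.66 had a limma adjusted p of 0.48. The share of all reads in TE insertions was 4.52%, 5.95% and 2.57% in mutant males and 2.87%, 2.50% and 2.08% in mutant females (exact two-sided permutation p of 0.2).

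Of the 150 families, 7 (4.67%) were higher and 3 (2%) lower in control males than in control females, and none of the 4 described next, all higher in control males, was called in mutants. TART-C, an element of the telomeres with 1 listed insertion, had 32.6, 36.8 and 14.1 normalized counts in mutant males and 12.2, 0 and 13.5 in mutant females. Its log2 fold change was 2.22 in mutants (limma adjusted p of 0.48) and 5.98 in controls (adjusted p of 0.00079). McClintock had a log2 fold change of 0.75 in mutants (adjusted p of 0.54) and 2.59 in controls (adjusted p of 0.0013). opus had 0.73 in mutants (adjusted p of 0.54) and 1.76 in controls (adjusted p of 0.0099), and Tabor had 1.26 in mutants (adjusted p of 0.48) and 2.15 in controls (adjusted p of 0.011). The test of the difference between genotypes did not pass for these 4 families, with adjusted p-values between 0.16 and 0.55.

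The TE families as a whole leaned towards mutant males, and this lean rested on mutant male replicate 2. The log2 fold change was above 0 in 129 of 150 families (86%), with a median of 0.36, beside a median of 0.09 over all tested transcripts. Without mutant male replicate 2 it was above 0 in 84 families (56%), with a median of 0.04 beside 0.06 over all transcripts. Leaving out any other mutant library left between 76.7% and 91.3% of the families above 0. In controls 36% of the families were above 0, with a median of -0.14. The mutant male libraries all lay above the mutant female libraries in 17 families (11.3%), near the 9.91% of all tested transcripts, and in none were they all below, beside 4.48%.

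**Figure D5:**
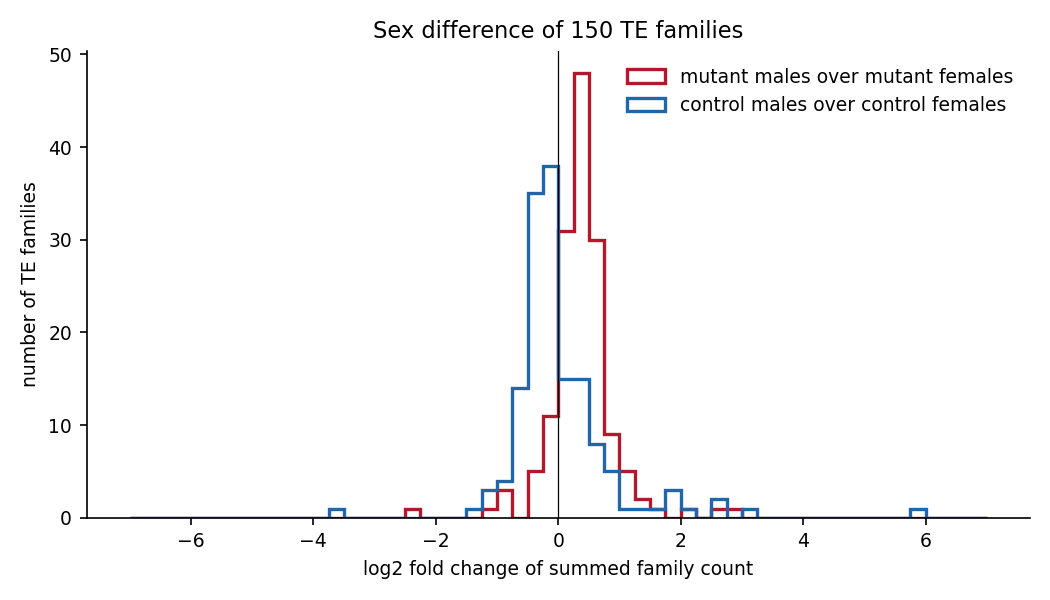
Number of TE families by their log2 fold change, for mutant males over mutant females in red and control males over control females in blue. Of the 150 families, 86% lie above 0 in mutants and 36% in controls, and without mutant male replicate 2 the share in mutants is 56%.

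Whether the sex effect itself differed between mutants and controls was tested by the interaction term of the same fit. It passed for 44 transcripts (0.125%) with a more positive male effect in mutants and for 238 (0.675%) with a more negative one. By class these were 31 (0.111%) and 203 (0.729%) known transcripts, and 13 (0.255%) and 33 (0.646%) assembled transcripts. Of the 238, 231 were among the transcripts higher in control males, beside 9.3% of all tested transcripts. Of the same 238, 39 were among those higher in mutant males, beside 2.99%. A higher level in control males makes the interaction more negative, so the overlap with control males is partly built in. Without mutant male replicate 2, the interaction counts were 91 and 1223. Among TE insertions none had a more positive and 2 (0.0857%) a more negative male effect, both of HeT-A, the main retrotransposon of the telomeres. HeT-A{}4795 had 281, 303 and 160 normalized counts in mutant males and 239, 406 and 247 in mutant females. In controls it had 128, 123 and 167 in males and 25.9, 17.9 and 19.2 in females. HeT-A{}5504 had 99.7, 77.7 and 104 in mutant males, 85.1, 127 and 109 in mutant females, 18.8, 14.5 and 25.1 in control males and 0 in control females. Both insertions thus overlapped between the sexes of the mutants but not between those of the controls. The interaction had a limma adjusted p of 0.046 for HeT-A{}4795, which passed in 1 of 12 fits that left out a library, and of 0.016 for HeT-A{}5504, which passed in all 12. Neither passed with a replicate block (0.115 for HeT-A{}4795 and 0.0603 for HeT-A{}5504). With a pseudocount of 8 the interaction of HeT-A{}5504, whose control females are at 0, was -1.93 with an adjusted p of 0.0869.

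Only 10 known transcripts could be tied to a gene by an exact identifier, and none was called between mutant males and mutant females, which at 3.55% higher and 0.23% lower over all known transcripts says little about these genes. The transcript of alpha-Spec, a protein of the membrane skeleton, had 28413, 43696 and 41131 normalized counts in mutant males and 42343, 42572 and 46746 in mutant females. The transcript of LanA, a laminin chain of basement membranes, had a log2 fold change of 0.24 with a limma adjusted p of 0.69. The transcript of sle had 3290, 772 and 3625 normalized counts in mutant males and 3135, 3398 and 3255 in mutant females. In controls it had 56.3, 7.54 and 38.8 in males and 2012, 1915 and 900 in females, with a log2 fold change of -5.81 there (limma adjusted p of 0.00046). Its test of interaction had an adjusted p of 0.068.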

How the data were processed

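RNA of pooled whole larvae was sequenced after removal of ribosomal RNA. Per the submitters' processing notes and methods, the authors trimmed reads with Trimmomatic 0.39, mapped them with HISAT2 2.2.1 (build BDGP6), assembled and quantified transcripts with StringTie 2.1.5 and normalized them in DESeq2 1.32.0. The deposited signal is therefore counts divided by 1 size factor per library. Multiplying it back gave whole reads within 0.01 for 100% of values up to 1000 reads. StringTie shares reads among overlapping transcripts and similar insertions, so these are not independent. Strand was not given in the sources used here.

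Transcripts with at least 10 normalized counts in 3 libraries were log2-transformed after adding 1 and tested with limma 3.58.1 (R 4.3.3), fitting 4 group means to all 12 libraries and adjusting by Benjamini-Hochberg. Fold changes on this scale understate those of low transcripts. DESeq2 1.42.0 and edgeR 4.0.16 were run on recovered reads as alternatives, beside those named in the closing section. The fits were tested on simulated data: limma was calibrated but missed changed transcripts, whereas DESeq2 made false calls at the spread of these libraries. The simulation drew each transcript around a mean pooled over all libraries, with changes in mutant males only. Transcripts absent in a sex of both genotypes were not simulated, so it does not say how many calls are false here.

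Named transcripts had the largest change among those called without overlap of the libraries, 1 per locus, and of these at most 2 identifiers per class and direction are printed. TE families and insertions called, and the family values beside them, were added. TE insertions took names from a gene name table, which matched all 3840. Known transcripts were not paired with genes except for 10, so gene lists, cell type markers, chromosome classes, *ISWI* itself and sums per gene are not analysed here. The members and lists were chosen with earlier results of these data known.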

Additional observations from a re-analysis of the deposited data

Results flagged for a closer look

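By its own test, the sex difference differed between mutants and controls (limma interaction, adjusted p under 0.05) for 8 of the results named. These were named for a large sex difference in mutants, which is a part of the interaction, or because the interaction itself passed. Their number is therefore partly fixed by that choice. In log2 units, the Cr1a family had an interaction of 2.83. Its 2 most abundant insertions did not share this, with -0.098 for Cr1a{}2297 (adjusted p of 0.997) and -1.60 for Cr1a{}1995 (adjusted p of 0.92), and control male replicate 2 held counts of both. RR48344, a single insertion with no named element, had an interaction of 4.27, which passed with adjustment over the 150 families but not over all transcripts (adjusted p of 0.167). RR48344 had 163, 211 and 137 normalized counts in mutant males and 109, 117 and 92.0 in mutant females, and in controls 309, 44.6 and 26.3 in males and 788, 1925 and 464 in females. FBtr0344884 had an interaction of 9.04 and MSTRG.2309.1 of 13.48, both detected almost only in mutant males. FBtr0308323 had an interaction of -13.49 and MSTRG.15566.2 of -10.26, both at 0 in mutant males. In controls FBtr0308323 had 215, 206 and 396 normalized counts in males and 0, 289 and 0 in females, so the sexes overlapped there. Its interaction had a limma adjusted p of 0.044. MSTRG.2309.1 and MSTRG.15566.2 were at 0 in all control libraries, so their interactions only repeat the difference between the mutant sexes. The interaction was -2.94 for HeT-A{}4795 and -4.50 for HeT-A{}5504. Groups of 3 libraries were too small for a test of single outlying libraries.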

How the results depend on the processing

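The counts of calls depended on the test more than their direction did. DESeq2 gave 2002 transcripts higher and 445 lower in mutant males (2092 known, 329 assembled and 26 TE insertions), 670 lower in control males and 1680 with an interaction. edgeR gave 290 higher and 14 lower in mutant males (290 known, 14 assembled and 0 TE insertions), 130 of the male-limited set, 2183 higher and 127 lower in control males and 52 with an interaction. Males were the higher sex in 81.8% of the calls with DESeq2, 95.4% with edgeR and 93.4% with limma. With only the 6 mutant libraries in the fit there were 370 higher and 33 lower (350 known, 3 TE insertions), 124 of the male-limited set and 3 TE families. With at least 10 in every library, which removes transcripts absent in a sex, 44 were higher and 7 lower (50 known, 1 assembled, 0 TE insertions and 0 of the male-limited set), with 441 higher and 68 lower in control males and 13 interactions. Library weights gave 2 TE insertions, 701 lower in control males and 735 interactions. There were 15 TE insertions without a filter and 2 with a pseudocount of 0.5, and 515 interactions with a pseudocount of 8. Scaling by total reads, which raised the median of all transcripts from 0.09 to 0.30, gave 3 TE families and 169 interactions, and with it 80.7% of the TE families still lay above that median. Assembled loci as sums gave 28 calls. Scaling by total reads, the loci sums, Cr1a without its 2 most abundant insertions (0.21) and the count tests on TE families were chosen after seeing the data.

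Leaving out 1 library gave 667 to 1144 higher and 49 to 133 lower in mutant males, 2 to 9 TE insertions, 1 to 4 TE families, 147 to 302 lower in control males and 180 to 1314 interactions. The fewest higher calls (667) and the most interactions (1314) came without mutant male replicate 2, 133 lower and 9 TE insertions without mutant male replicate 3, 49 lower without mutant female replicate 3, and 4 TE families without mutant male replicate 1. HeT-A{}4795 kept its call in 1 of these 12 fits and HeT-A{}5504 in 12. The deviations of same-numbered libraries had correlations of -0.0071, -0.0053 and -0.001 in mutants and 0.0361, 0.0371 and -0.0205 in controls. Such values cannot exclude a batch shared by same-numbered libraries. In males of both genotypes, replicate 2 had the fewest rows at 0. A replicate block gave 827 higher, 50 lower, 3 TE insertions and 123 interactions. None of the transcripts, insertions and families refitted under these alternatives changed sign. The cause of these differences between settings was not tested.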
